A study of Mus musculus with 4 samples.

Results

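Chemokines and chemokine receptors were examined in caecal tissue of apolipoprotein E knockout (apoE KO) and wild-type (WT) mice on Affymetrix arrays. A gene was taken when a probe set with a single gene symbol carried a symbol of the Ccl, Cxcl, Cx3cl1 or Xcl1 ligands, of the Ccr, Cxcr, Cx3cr1 or Xcr1 receptors, or of the atypical receptors Ackr. This gave 55 genes on 56 probe sets, of 22180 genes with such a probe set on the array. Only Ccl27a had more than 1 such probe set, and the set with the highest mean was used for it.

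The 4 groups were KO with prebiotics, KO without prebiotics, WT titled with prebiotics and WT titled without prebiotics. All mice, the controls included, were C57Bl/6 of 21 weeks on an n-3 PUFA depleted diet, that is, one poor in omega-3 fatty acids. Prebiotics (Orafti P95) were added for the final 15 days, each mouse receiving 250 mg daily. Each group was 1 array of RNA pooled from 6 mice chosen on RNA quality, so the spread between mice is not seen. The diet labels of the 2 WT arrays conflict: title, source name and treatment give 1 diet and the description the other. The WT arrays are therefore named by their titles, and each statement on prebiotics that uses them depends on the titles. ApoE KO mice lack the gene in the whole body, and the caecal tissue was analysed without separating its cells.

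Chemokines are small secreted proteins that guide leukocytes through G protein-coupled receptors on the migrating cell. Homeostatic chemokines of the gut are made by epithelium and stroma and place lymphocytes, plasma cells and macrophages in the mucosa and its lymphoid follicles, whereas inflammatory chemokines are switched on by microbial signals and cytokines and call in neutrophils, monocytes and T cells. Atypical receptors bind chemokines without signalling through G proteins and remove them from the tissue.

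Values are log2 RMA values, which compress differences near background. On each array the median of the single-symbol probe sets, between 2.99 and 3.01 log2 units, served as the limit for a low value, and levels are read only against that limit. The median over all probe sets was 2.92 to 2.93 on each array, and any 2 arrays correlated at Pearson's r of 0.984 to 0.988 over the probe sets, which are not independent replicates. Apoe had 3.13 and 2.83 on the KO arrays with and without prebiotics, against 4.094 and 3.903 on the WT arrays titled with and without. General epithelial and smooth muscle markers averaged between 8.40 and 9.75 on all 4 arrays. In these bulk samples, fewer cells of a type and less RNA per cell cannot be told apart.

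Promoter sequences were taken for members on which the results turn, from RefSeq on GRCm38.p6; the table held a promoter for 41 of the 55 members. Each window runs from 250 bases before to 50 bases after the gene's start and is given 5′ to 3′ on the gene's strand. The first group is Cx3cl1, Cxcl14 and Cxcl13, whose levels stood clear of the limit and differed within the pairs of arrays. The second is Cxcl1, Cxcl2 and Cxcl3, neutrophil chemoattractants of neighbouring genes that lay below the limit on all 4 arrays. Capitals mark matches on either strand to the NF-kB consensus, to the TATA box hexamer TATAAA or to the AP-1 heptamer TGANTCA.
Cx3cl1: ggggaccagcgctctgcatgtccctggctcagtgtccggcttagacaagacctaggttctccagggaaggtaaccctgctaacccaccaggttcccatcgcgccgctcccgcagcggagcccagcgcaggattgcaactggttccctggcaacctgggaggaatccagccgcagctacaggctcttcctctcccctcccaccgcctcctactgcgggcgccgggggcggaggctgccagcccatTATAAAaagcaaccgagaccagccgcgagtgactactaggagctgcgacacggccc
Cxcl14: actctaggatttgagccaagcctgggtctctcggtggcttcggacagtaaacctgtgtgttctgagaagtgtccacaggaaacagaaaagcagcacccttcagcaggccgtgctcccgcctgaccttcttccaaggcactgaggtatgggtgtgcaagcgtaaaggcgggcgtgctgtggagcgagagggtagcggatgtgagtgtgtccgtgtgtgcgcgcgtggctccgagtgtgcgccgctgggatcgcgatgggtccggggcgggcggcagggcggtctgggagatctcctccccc
Cxcl13: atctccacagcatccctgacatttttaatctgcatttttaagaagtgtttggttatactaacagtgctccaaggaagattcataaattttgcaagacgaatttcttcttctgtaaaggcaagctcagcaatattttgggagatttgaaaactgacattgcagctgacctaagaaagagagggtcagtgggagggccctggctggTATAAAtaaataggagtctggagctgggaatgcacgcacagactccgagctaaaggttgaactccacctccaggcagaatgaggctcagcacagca
Cxcl1: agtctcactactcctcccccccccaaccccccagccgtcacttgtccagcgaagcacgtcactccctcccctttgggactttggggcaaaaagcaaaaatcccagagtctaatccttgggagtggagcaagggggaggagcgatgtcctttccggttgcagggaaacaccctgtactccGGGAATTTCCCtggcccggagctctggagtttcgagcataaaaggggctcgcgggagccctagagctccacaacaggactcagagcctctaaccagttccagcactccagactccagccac
Cxcl2: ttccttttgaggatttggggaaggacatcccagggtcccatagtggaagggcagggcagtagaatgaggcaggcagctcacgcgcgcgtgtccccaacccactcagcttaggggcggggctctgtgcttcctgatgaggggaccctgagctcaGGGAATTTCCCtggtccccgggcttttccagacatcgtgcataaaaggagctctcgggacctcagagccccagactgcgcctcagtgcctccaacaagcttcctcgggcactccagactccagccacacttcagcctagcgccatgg
Cxcl3: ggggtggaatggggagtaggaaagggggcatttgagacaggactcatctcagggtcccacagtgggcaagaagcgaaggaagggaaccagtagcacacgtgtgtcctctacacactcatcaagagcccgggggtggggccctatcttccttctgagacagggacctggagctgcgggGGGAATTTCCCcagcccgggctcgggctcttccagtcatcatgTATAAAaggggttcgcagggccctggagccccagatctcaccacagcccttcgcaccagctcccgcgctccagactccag

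The windows were chr8:94771930-94772229 on the plus strand for Cx3cl1, chr13:56296502-56296801 on the minus strand for Cxcl14 and chr5:95956689-95956988 on the plus strand for Cxcl13. Those of the neutrophil chemoattractants were chr5:90890995-90891294 on the plus strand for Cxcl1, chr5:90903649-90903948 on the plus strand for Cxcl2 and chr5:90785851-90786150 on the plus strand for Cxcl3. The promoters of Cxcl1, Cxcl2 and Cxcl3 each held the same run of capitals, where the NF-kB consensus matched both strands in overlapping positions, starting at base 180, 154 and 178 of the window. Cxcl3 also held TATAAA at bases 221 to 226. Cxcl13 and Cx3cl1 held TATAAA, at bases 205 to 210 and 245 to 250, and no NF-kB match. Cxcl14 held none of the 3 motifs. Over the members' 45 windows (some genes have more than 1), the NF-kB consensus matched in 12 windows (26.7%), TATAAA in 13 (28.9%) and the AP-1 heptamer in 7 (15.6%). Among 32851 promoters of the same length the shares were 8.46%, 13.6% and 7.81%. These matches describe the letters in the windows only.

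Of the 55 members, 29 reached the limit on at least 1 array and were tested, 14 reached it on all 4 arrays, and 26 stayed below it on all 4. The 26 lay between 2.47 and 3.01 log2 units. The median over all 55 members lay between 2.85 and 2.93 on the 4 arrays, below the median of all probe sets on each. The 26 were thus not distinguished from the lower part of the array in whole caecum. The limit is itself a median, and 13083 of all 22180 genes reached it on at least 1 array. At least 1 log2 unit above the limit on average were 6810 of all genes and 8 members. These 8 were Ccl28, Cxcl14, Cx3cl1, Cxcl16, Cxcl13, Cxcl12, Ccl9 and Ccl11.

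**Figure D1:**
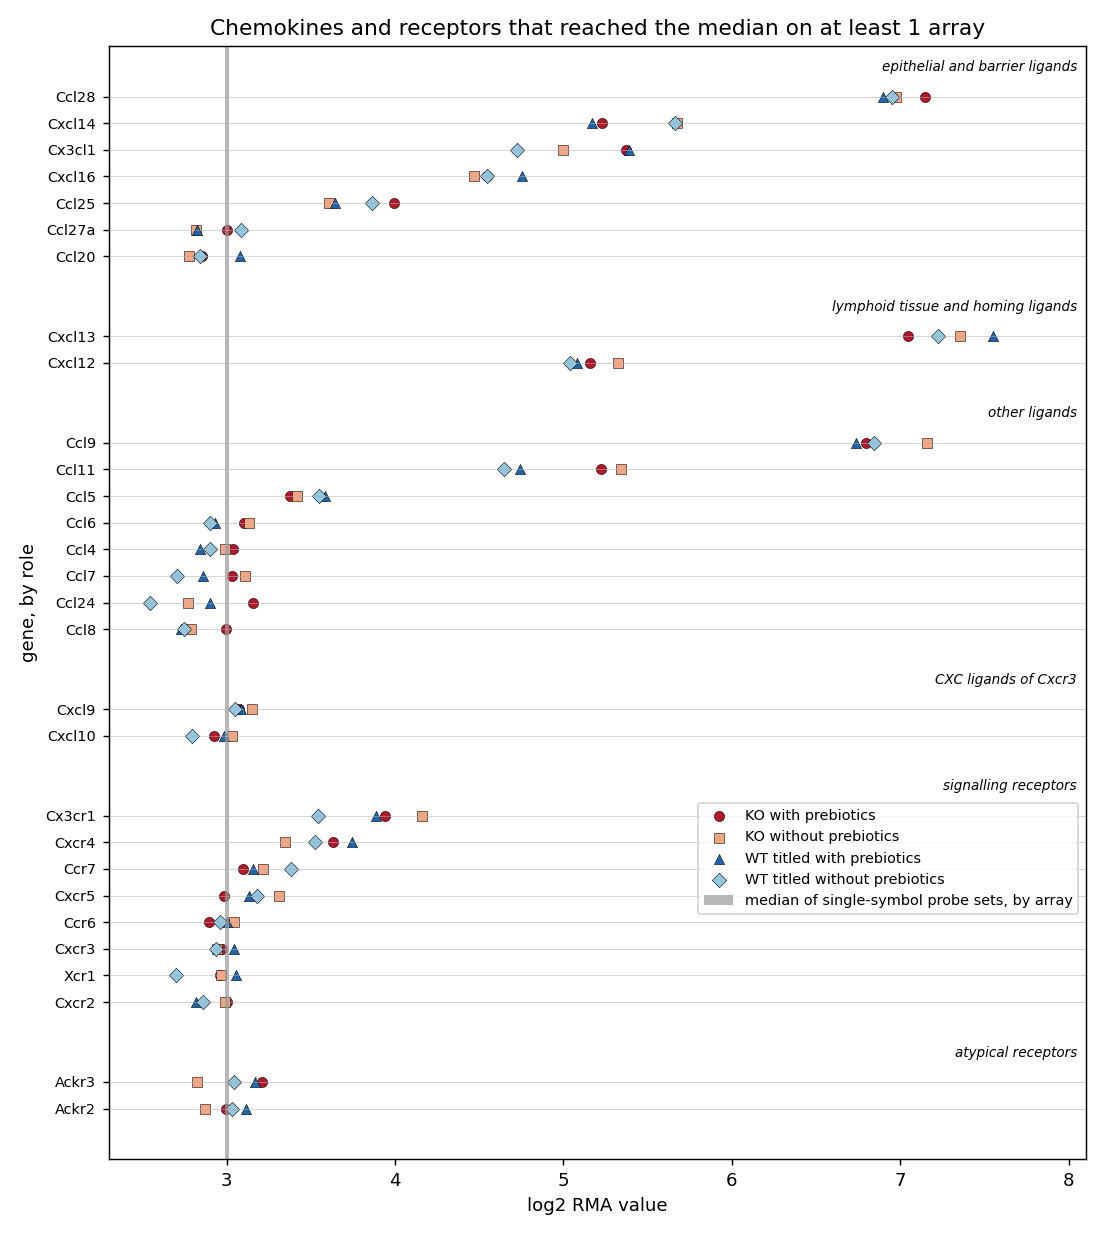
Log2 RMA value (x axis) of each of the 29 members that reached the limit (y axis, by role) on the 4 arrays; each point is 1 array and the grey band spans the limits of the arrays, 2.99 to 3.01. Ccl28, Cxcl13 and Ccl9 lie near 7 on all arrays, Ccl11 separates by genotype, and most receptors lie within 0.5 log2 units of the band.

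By role, the ligands that reached the limit on all 4 arrays were mainly homeostatic ones of epithelium, barrier tissue and lymphoid follicles. Of 8 epithelial and barrier ligands 5 reached the limit on all 4 arrays, as did both single-symbol lymphoid and homing ligands, Cxcl13 and Cxcl12. Ccl9, Ccl11, Ccl5 and the interferon-induced Cxcl9 also reached it on all 4 arrays, and the monocyte chemoattractants Ccl2 and Ccl12 on none. All 5 neutrophil-type CXC ligands, Cxcl1, Cxcl2, Cxcl3, Cxcl5 and Cxcl15, were below the limit on all arrays, between 2.47 and 2.93. Of the interferon-induced ligands of Cxcr3, Cxcl9 lay between 3.05 and 3.15, Cxcl10 between 2.79 and 3.03, and Cxcl11 between 2.68 and 3.01. The T helper and regulatory T cell chemoattractants Ccl17 and Ccl22, Ccl1 and the lymphotactin Xcl1 lay below the limit on every array, between 2.59 and 2.95. So did Ccl3 (2.67 to 2.89), the eotaxin Ccl26 (2.57 to 2.87) and the mucosal chemokine Cxcl17 (2.82 to 2.98).

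Among the signalling receptors 3 of 17, Cx3cr1, Cxcr4 and Ccr7, reached the limit on all 4 arrays, 8 were tested and 9 lay below it on every array. Among them, Ccr2, Ccr4, Ccr8 and Cxcr1 lay between 2.54 and 2.96, and the atypical receptors Ackr1 and Ackr4, below the limit too, between 2.67 and 2.87. Several of the ligands above have their receptor among the signalling receptors below the limit. Ccl28 was at 6.90 to 7.15, and its receptor on IgA plasma cells, Ccr10, at 2.55 to 2.77. Ccl9 was at 6.74 to 7.16, and its receptor Ccr1 at 2.67 to 2.90. Ccl11 was at 4.65 to 5.34, and its eosinophil receptor Ccr3 at 2.53 to 2.68. For Cxcl16, at 4.47 to 4.75, the receptor Cxcr6 lay at 2.57 to 2.74, and for Ccl25, at 3.61 to 3.99, the gut-homing receptor Ccr9 lay at 2.57 to 2.70. In each case the ligand was above the limit and the receptor below it on all 4 arrays. For Cx3cl1 with Cx3cr1, and for Cxcl12 with Cxcr4, ligand and receptor were both above the limit on all arrays.

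The genotype comparison set both KO arrays against both WT arrays, with the 2 diets pooled, and does not depend on the WT diet labels. Ccl11, eotaxin-1, which attracts eosinophils to the gut wall, showed the largest difference among the tested members. It had 5.22 and 5.34 on the KO arrays with and without prebiotics, against 4.74 and 4.65 on the WT arrays titled with and without. Both KO arrays lay above both WT arrays, by a mean log2 difference of 0.59 (SE 0.14, limma adjusted p = 0.999). Leaving out any 1 array gave between 0.53 and 0.65. With diet as a block and the WT arrays by title the adjusted p of limma was 0.29, and 0.9997 with the WT arrays exchanged, so Ccl11 passed in none of these fits.

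No member was called for genotype by limma in either direction. At an adjusted p under 0.05, 0 of 29 tested members were higher in KO and 0 lower, as were 0% of all 13083 genes in each direction. At an unadjusted p under 0.05 limma marked 1 member, Ccl11, and 3.29% of all genes. The median difference over the 29 tested members was 0.05 log2 units, with 17 above 0, against 0.01 over all genes, of which 52.9% were above 0.

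Both KO arrays lay above both WT arrays for 12 of the 55 members (21.8%, against 15% of 22180 genes) when no limit was set, and below for 8 (14.5%, against 16%). Among the 29 tested members the counts were 9 and 3, against 16.2% and 14% of genes (30.2% in either direction). Of these 9, Ccl4, Ccl6, Ccl7, Ccl8 and Cxcr2 reached the limit only on KO arrays, so the limit itself favoured that direction, and their count is no support for it. Among the 8 members at least 1 log2 unit above the limit, Ccl11, Ccl28 and Cxcl12 had both KO arrays higher (17% of 6810 such genes) and Cxcl16 had both lower (11.6%). Ccl28 had 7.15 and 6.97 in KO with and without prebiotics, against 6.90 and 6.95 in WT by title. Its difference of 0.14 was close to its SE of 0.13, and the closest KO and WT arrays differed by 0.02. Cxcl12, the stromal ligand that retains Cxcr4-bearing cells, had 5.16 and 5.32 in KO, against 5.08 and 5.04 in WT. Cxcl16, a membrane-bound ligand for T cells and innate lymphocytes, had 4.55 and 4.47 in KO, against 4.75 and 4.55 in WT, and the closest KO and WT arrays differed by under 0.01.

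**Figure D2:**
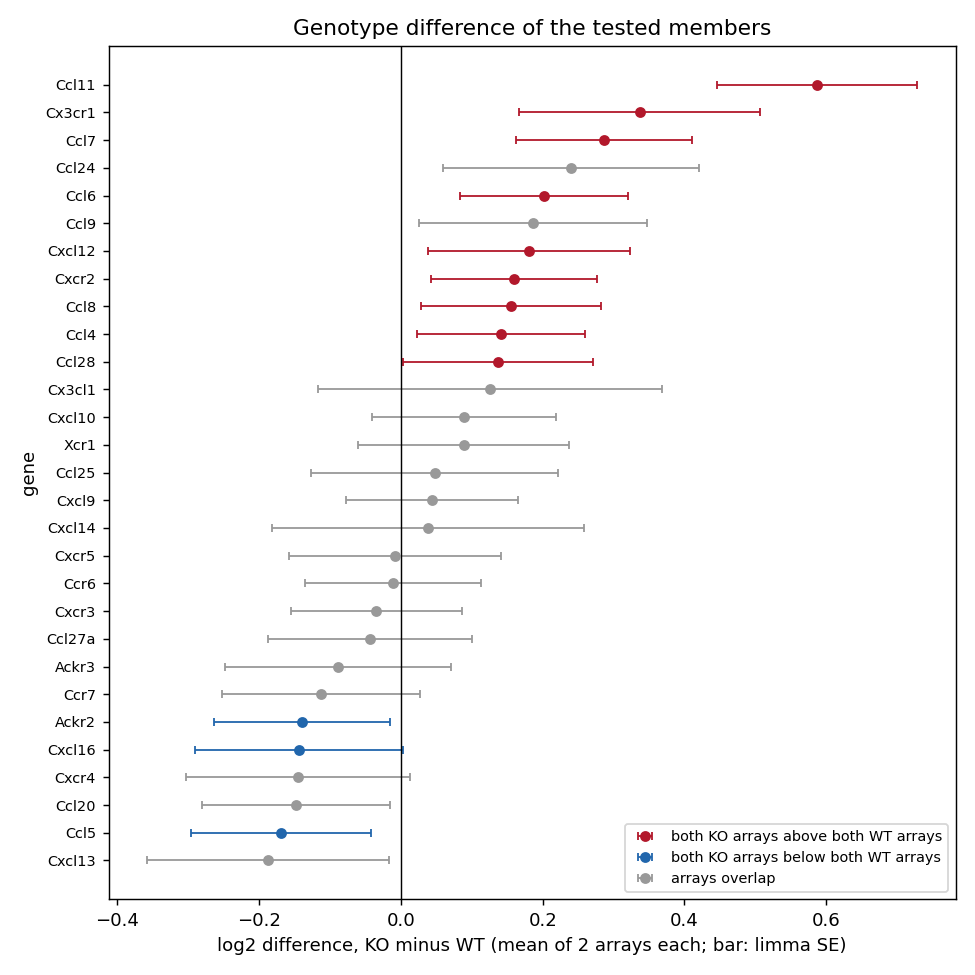
Log2 difference, KO minus WT (x axis), of the 29 tested members (y axis), each the mean of 2 KO arrays minus the mean of 2 WT arrays with the limma SE as a bar. Ccl11 at 0.59 stands apart from the others, which lie between -0.19 (Cxcl13) and 0.34 (Cx3cr1); no member passed the adjusted threshold.

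Ccl11 lies on chromosome 11 in a run of 6 chemokine genes, Ccl2, Ccl7, Ccl11, Ccl12, Ccl8 and Ccl1, that are consecutive coding genes in RefSeq. The monocyte and eosinophil chemoattractant Ccl7 had 3.03 and 3.11 on the KO arrays, against 2.86 and 2.71 on the WT arrays, a difference of 0.29 (SE 0.12). Ccl12 and Ccl8 each had 0.16 and also had both KO arrays above both WT arrays, at levels near or below the limit; for Ccl8 the difference was 0.052 without the KO array with prebiotics and 0.26 without the KO array without them. Ccl2 had -0.09 and Ccl1 -0.01, all below the limit. In the run of Ccl5, Ccl9, Ccl6, Ccl3 and Ccl4 on the same chromosome, Ccl5 was on the other side. It had 3.38 and 3.42 in KO, against 3.58 and 3.55 in WT, a difference of -0.17 (SE 0.13). Ccl9, a Ccr1 ligand found in the follicle-associated epithelium of mice, had 6.79 and 7.16 in KO, against 6.74 and 6.84 in WT, so its arrays overlapped. Ccl6, a further Ccr1 ligand, had 3.10 and 3.13 in KO, against 2.93 and 2.90 in WT.

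Cx3cr1, the fractalkine receptor of intestinal macrophages, had 3.94 and 4.16 on the KO arrays, against 3.89 and 3.54 on the WT arrays (difference 0.34, SE 0.17, limma adjusted p = 0.999). The KO arrays lay above the WT arrays, but the gap between the closest arrays was 0.05, and leaving out the WT array titled without prebiotics gave 0.16. Of 10 macrophage markers 8 had a difference above 0 (52.9% of all genes) and 5 had both KO arrays above both WT arrays (16.2% of all genes), with a median of 0.24 and 0 called by limma. Without the WT array titled without prebiotics the median was 0.078, with 6 of 10 above 0. The mean marker level was 4.72 and 4.70 in KO, against 4.59 and 4.24 in WT. Mrc1, a tissue macrophage receptor, had 5.21 and 5.26 in KO, against 4.91 and 3.59 in WT, and C1qb, a complement subunit, had 6.10 and 6.29 in KO, against 5.85 and 5.06 in WT. Their differences of 0.99 and 0.74 rested largely on the WT array titled without prebiotics, and were 0.32 and 0.34 without it. For Ccl11 the markers of stromal cells are of interest. Fibroblast markers were above 0 in 8 of 8 (median 0.29), with decorin (Dcn) at 0.77. Without each array in turn their median was 0.14 to 0.55, with 6 or 7 of 8 above 0. Their mean level was 6.44 and 6.31 in KO, against 6.18 and 5.84 in WT. Smooth muscle markers were above 0 in 8 of 8 (median 0.32, and 0.17 to 0.53 without each array in turn, mean level 8.83 and 8.95 in KO, against 8.40 and 8.69 in WT), with Cnn1 at 0.64. Of all genes 52.9% were above 0. Epithelial markers were above 0 in 0 of 8 (median -0.055), and in 0 to 4 of 8 without each array in turn. The part of macrophages and stromal cells in the chemokine differences was not tested. The 4 eosinophil markers Epx, Prg2, Siglecf and Il5ra lay below the limit on all arrays.

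Prebiotics were compared in KO, in the WT pair by title and over both genotypes. Cx3cl1 and Cxcl14 differed the same way in both pairs and by the largest amounts among the members over both genotypes. Fractalkine (Cx3cl1), the membrane-anchored ligand of Cx3cr1 on epithelium and endothelium, had 5.37 on the KO array with prebiotics, against 4.99 on the KO array without. On the prebiotic-titled WT array it had 5.39, against 4.72 on the array titled without. Cxcl14, a constitutive chemokine of epithelium and stroma, ran the other way. It had 5.23 on the KO array with prebiotics, against 5.68 on the KO array without, and 5.17 on the prebiotic-titled WT array, against 5.66 on the array titled without. For both genes the arrays with prebiotics by title did not overlap the others.

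Over both genotypes Cx3cl1 differed by 0.52 (SE 0.14, limma adjusted p = 0.13) and Cxcl14 by -0.47 (SE 0.13, limma adjusted p = 0.13), so neither passed. The adjusted p of Cx3cl1 ranged from 0.11 to 0.22 over the other settings with the WT arrays by title, and that of Cxcl14 from 0.11 to 0.23. With the WT arrays exchanged, as in their descriptions, the values were -0.15 and 0.02, and neither passed. The KO pair alone, whose labels do not conflict, gave 0.37 and -0.45, and the WT pair by title 0.67 and -0.49. These single-array differences have no replicate check.

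Some markers of cells that can hold such ligands also differed with prebiotics by title. Over both genotypes limma called 1 of 8 fibroblast markers higher, 2 of 8 smooth muscle markers lower and 2 of 5 adipocyte markers lower, and 0 in the other marker lists. Of all 13083 genes it called 0.994% higher and 0.26% lower. Col1a1, a collagen chain, had 7.48 on the KO array with prebiotics, against 6.39 without, and 7.32 against 6.02 in the WT pair, a difference of 1.19 (limma adjusted p = 0.0018). The fatty acid carrier Fabp4 had -1.09 (limma adjusted p = 0.011) and the lipase Lpl -0.87 (limma adjusted p = 0.014). The contractile genes Myh11 and Myl9 had -0.41 (limma adjusted p = 0.035) and -0.45 (limma adjusted p = 0.047). Kdr, an endothelial receptor, had -0.65 (limma adjusted p = 0.057). Each of these 6 genes ran the same way in both pairs by title, and with the WT arrays exchanged 0 genes were called in all. These 6 had the largest prebiotic differences of their lists, whose other markers did not all run the same way. Above 0 were 5 of 8 fibroblast markers (median 0.16) and 1 of 8 smooth muscle markers (median -0.20). So were 1 of 5 adipocyte markers (median -0.27) and 3 of 10 endothelial markers (median -0.09). Plin1, an adipocyte marker, had 0.13, and Adipoq lay below the limit on all 4 arrays. Epithelial markers had a median of 0.03 in the KO pair and below 0.01 in size in the WT pair. The part of these cells in the Cx3cl1 and Cxcl14 differences was not tested.

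By limma's adjusted p, 0 of 29 tested members were higher with prebiotics, against 0.994% of all 13083 genes, and 0 lower, against 0.26%. At an unadjusted p under 0.05 limma marked 3 members (Cx3cl1, Cxcl14 and Ccl24), 10.3% against 13.8% of all genes, and with the WT arrays exchanged 0 members against 1.3% of genes. The median over the members was 0.04, with 16 of 29 above 0, against 0.02 over all genes with 55.1% above 0. Ccl24, eotaxin-2, had 3.16 against 2.77 in the KO pair with and without prebiotics, and 2.90 against 2.54 in the WT pair by title. It reached the limit on 1 array only, so its size of 0.38 (SE 0.13, limma adjusted p = 0.23) is approximate.

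No member reached a 2-fold difference within a pair. In KO, 0 of 26 members measured were 2-fold higher with prebiotics (0.475% of 12216 genes) and 0 were 2-fold lower (0.139%). In the WT pair, 0 of 21 were 2-fold higher on the prebiotic-titled array (0.335% of 12223 genes) and 0 were 2-fold lower (0.18%). The members ranged from -0.45 to 0.39 in KO (median -0.03, with 12 of 26 above 0, against 0.04 over all genes) and from -0.49 to 0.67 in the WT pair (median 0.08, with 14 of 21 above 0, against 0.02).

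**Figure D3:**
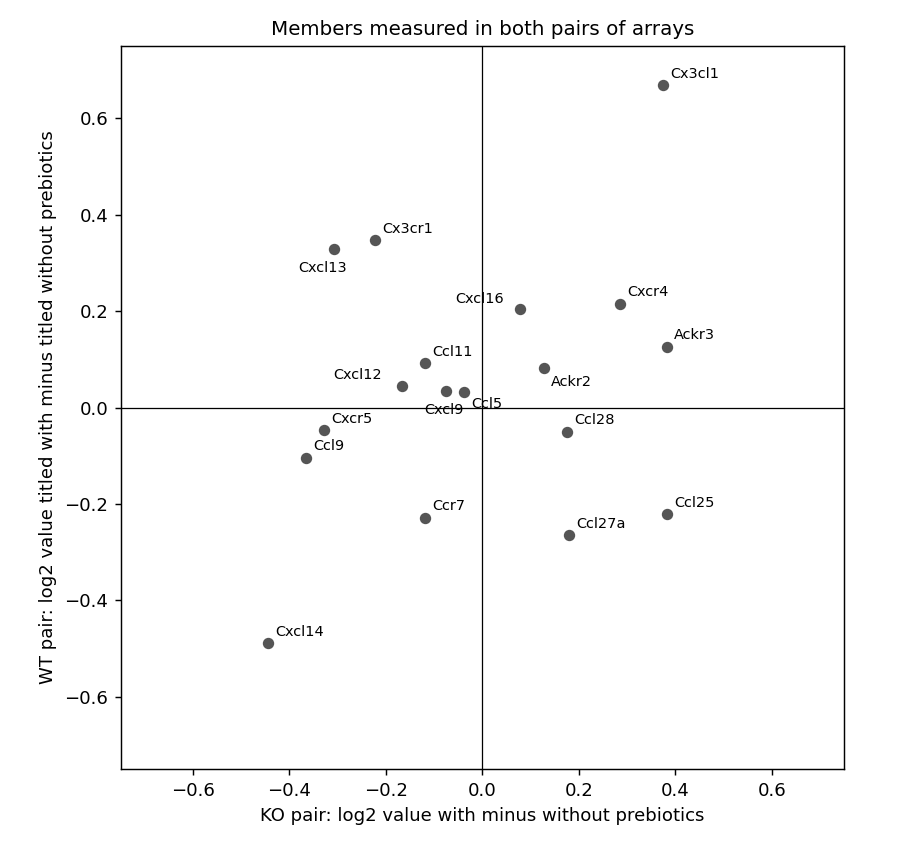
Log2 difference in the KO pair (x axis) against that in the WT pair by title (y axis) for the 18 members measured in both pairs; each point is 1 gene and each difference is between 2 single arrays. Cx3cl1 lies far in the upper right (0.37, 0.67), Cxcl14 far in the lower left (-0.45, -0.49), and Cxcl13 and Cx3cr1 in the upper left.

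Of 18 members measured in both pairs, 5 were higher with prebiotics by title in both, 27.8% against 35.5% of 11356 genes, and 4 were lower in both, 22.2% against 25.1%. By at least 0.3 log2 units, Cx3cl1 was the only member higher in both, against 4.46% of genes, and Cxcl14 the only member lower in both, against 1.89%. The pairs share no array. The 5 were Cx3cl1, Cxcl16, the Cxcl12 receptor Cxcr4, and the scavenging receptors Ackr3 and Ackr2. Cxcr4 had 3.63 against 3.35 in the KO pair and 3.74 against 3.53 in the WT pair (with against without, WT by title), a difference over both genotypes of 0.25 (SE 0.13, limma adjusted p = 0.47). Ackr3, which binds Cxcl12 without G protein signalling, had 3.21 on the KO array with prebiotics, against 2.83 without. In the WT pair it had 3.17 on the array titled with prebiotics, against 3.04. Their ligand Cxcl12 had -0.17 in the KO pair and 0.04 in the WT pair. The 4 lower in both were Cxcl14, Ccl9, the follicle-homing receptor Cxcr5, and Ccr7. Ccl9 had -0.37 in the KO pair and -0.10 in the WT pair, and over both genotypes -0.23 (SE 0.12, limma adjusted p = 0.43).

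Ccl25 and Ccl28, epithelial ligands that draw lymphocytes and IgA plasma cells to the gut, did not show the same direction in the pairs. Ccl25 had 3.99 on the KO array with prebiotics, against 3.61 without, but 3.64 on the prebiotic-titled WT array, against 3.86 without. Ccl28 had differences of 0.17 in the KO pair and -0.05 in the WT pair. Ccl20, the Ccr6 ligand of follicle-associated epithelium, reached the limit only on the prebiotic-titled WT array (3.08), and Ccr6 lay between 2.90 and 3.04.

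The lymphoid tissue ligands belong to a further contrast between the pairs. Cxcl13, the B cell follicle chemokine, had 7.05 on the KO array with prebiotics, against 7.35 without, and 7.55 on the prebiotic-titled WT array, against 7.22 without. The differences of -0.31 and 0.33 were in opposite directions, and no test of that difference was available with 1 array per group. Its receptor Cxcr5 on follicular B and T cells had 2.98 on the KO array with prebiotics, against 3.31 without, and 3.13 against 3.18 in the WT pair. Ccr7, which brings lymphocytes and dendritic cells to Ccl19 and Ccl21, had 3.10 against 3.22 in the KO pair and 3.16 against 3.38 in the WT pair. The KO array with prebiotics was the lowest of the 4 for Cxcl13, and for Cxcr5 and Ccr7, which lay near the limit (Cxcr5 below it on that array). For Cxcl12 it was not, with 5.16 on that array, against 5.08 and 5.04 on the WT arrays. Ccr7 differed more in the WT pair (-0.23) than in the KO pair (-0.12). The share of all genes with that array lowest was not counted.

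Ccl21 and Ccl19 have no single-symbol probe set on this array, since their near-identical copies share probe sets, and they are not members; they were looked at after the members. The 9 Ccl21 probe sets held 5 distinct sets of values, and which gene copy gives the signal is uncertain. Their median was 7.75 on the KO array with prebiotics, against 8.93 on the KO array without, and 7.93 on the prebiotic-titled WT array, against 8.39 on the array titled without. All 5 distinct sets were lower with prebiotics in KO, by log2 differences from -1.26 to -1.12, and in the WT pair from -0.46 to -0.19. The KO pair differed by over 2-fold in every set, whereas 0.139% of 12216 genes with a single-symbol probe set were 2-fold lower. The sets read near-identical copies on the same arrays, so their agreement is not independent. Between the arrays without prebiotics by title, KO exceeded WT by 0.54 to 0.75, and between the arrays with prebiotics the difference was -0.33 to -0.12. The 13 Ccl19 probe sets (9 distinct) lay between 2.74 and 3.58 on the 4 arrays. Ccl27a shared its values with a probe set of several symbols, so its signal is uncertain in the same way.

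Beside these, 8 B cell markers averaged 2.82 on the KO array with prebiotics, against 3.40 without, and 3.49 on the prebiotic-titled WT array, against 3.51 without. Of these, 6 reached the limit in the KO pair, and all 6 were lower with prebiotics (median -0.54), as were 4 of 8 in the WT pair (median -0.03). Over all genes measured in the KO pair, 56% were higher with prebiotics. Most of the 6, Cd79b and Ms4a1 among them, reached the limit only on the KO array without prebiotics. The limit itself thus favoured that direction, and their count is no support for it. Cd79a, a chain of the B cell receptor, had 3.16 against 4.52 in the KO pair, and Ms4a1 (CD20) had 2.78 against 3.39. Of the 4 lymphatic endothelial markers measured, 3 were lower in the KO pair (median -0.05) and 3 in the WT pair (median -0.09). Lyve1, a hyaluronan receptor of lymphatic vessels, had 5.87 on the KO array with prebiotics, against 5.95 without. T cell markers had a median of -0.20 in the KO pair and 0.19 in the WT pair (5 measured in each), at levels near the limit. The part of B cells, T cells or lymphatic endothelium in the Cxcl13 and Ccl21 differences was not tested.

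**Figure D4:**
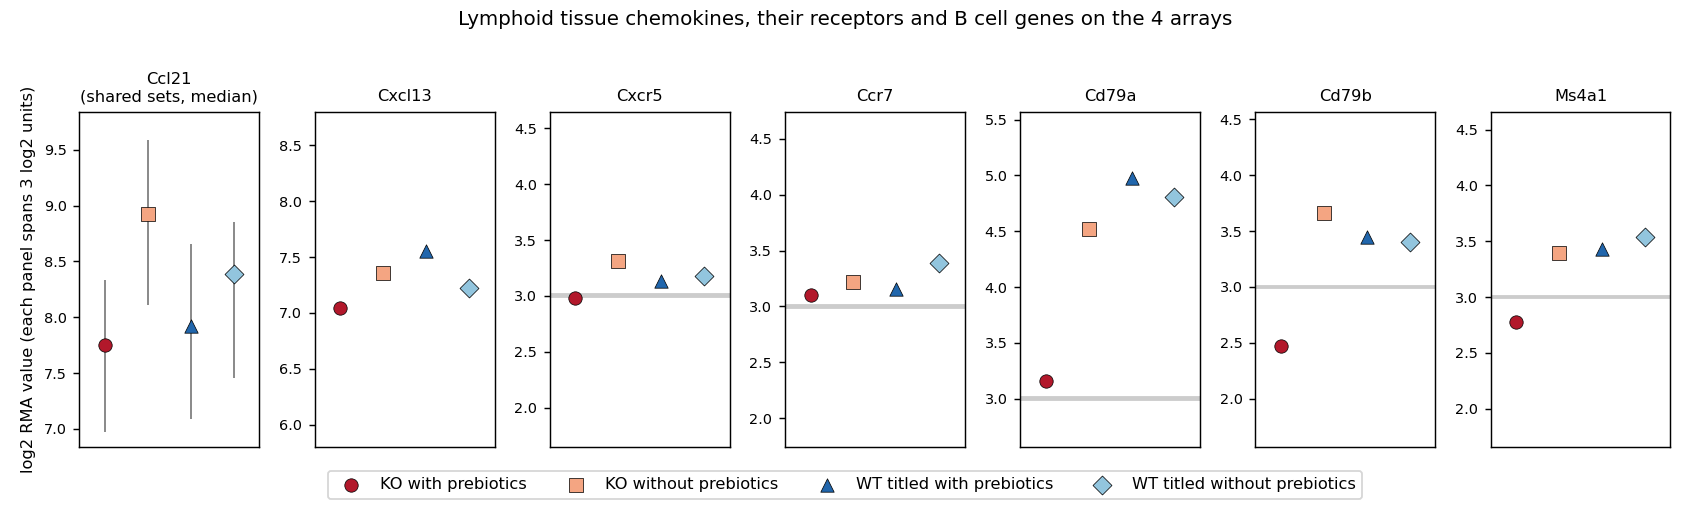
Log2 RMA value (y axis, each panel spanning 3 log2 units) of Ccl21 (median of 5 distinct shared probe sets, line from lowest to highest), Cxcl13, Cxcr5, Ccr7 and the B cell genes Cd79a, Cd79b and Ms4a1; each point is 1 array, and grey bands mark the limit. The KO array with prebiotics is the lowest point in all 7 panels. The panels show chosen genes, and the share of all genes with that array lowest was not counted. Cxcl12, which is not shown, had 5.16 on that array, above both WT arrays.

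Genes that act with the chemokines were read from lists. Of 21 genes of receptor signalling, 0 were called by limma for genotype or for prebiotics. The largest differences over both genotypes were those of Gnai3, an inhibitory G protein subunit, at 0.45 (limma adjusted p = 0.07), and of Rgs2, which shortens G protein signals, at -0.40 (limma adjusted p = 0.21). Rac2, the leukocyte GTPase of migration, had -0.49 for genotype, with 4.77 and 5.02 in KO, against 5.78 and 4.99 in WT, and so overlapped. The cytokine genes Tnf, Il6, Il1a, Il17a, Il22 and Ifng lay below the limit on every array. Il1b, an inflammatory cytokine, was near the limit, with 3.03 and 2.88 in KO, against 3.28 and 3.02 in WT, and overlapped. Rela, the NF-kB subunit, had 7.21 and 7.27 in KO, against 7.04 and 6.91 in WT. Of the lymphotoxin and noncanonical NF-kB genes, which set up follicular stroma, 7 of 9 were tested and 0 called. Ltb had 2.89 and 2.94 in KO, against 3.30 and 3.23 in WT, and Relb had 3.64 and 3.42, against 4.003 and 3.679. Both had the KO arrays below the WT arrays, as did 3 of the 7 tested in all (14% of all genes). Ltb reached the limit only on the WT arrays, so the limit itself favoured that direction for it. Of the related genes, Dpp4, a peptidase that trims chemokines, had 0.23 for genotype and 0.23 for prebiotics, the chemokine-like Mif -0.26 and -0.05, and the platelet chemokine Pf4 lay between 2.98 and 3.08. The neutrophil markers S100a8, S100a9, Mpo, Elane, Csf3r and Retnlg lay below the limit on all arrays. Ly6g was the exception, with 4.45 on the prebiotic-titled WT array and between 2.94 and 3.03 on the others.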

How the data were processed

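RNA of 6 mice per group was pooled and 100 ng labelled per array, per the labels' protocols. The deposited values are log2 values that the authors made with Affymetrix Expression Console and RMA, per the submitters' processing notes; versions, settings and a genome build are not given in the sources used here. The log base follows from RMA. Of 41345 probe sets, 23521 had 1 symbol, 1814 several and 16010 none. The RefSeq table of GRCm38.p6 gave the same symbol for all 55 members.

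A gene was tested if it reached the median of the single-symbol probe sets on at least 1 array of a comparison. Fits over 13083 genes used limma 3.58.1 under R 4.3.3 (lmFit, eBayes with a trend, two-sided, Benjamini-Hochberg over all genes, threshold 0.05). Genotype had 2 residual degrees of freedom and prebiotics, with genotype as a term, 1. P-values rest on 4 pooled samples with no replicate of any group, and the number of arrays limits the precision. For genotype the spread is that between the arrays of each genotype, which differ in diet, so a diet difference enlarges it. For prebiotics the spread is how far the prebiotic difference varied between the genotypes. Single pairs have no test; a 2-fold limit was counted. The fits were tested on simulated data.

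Any member could be named: values per array were for members tested and among the 8 largest each way in a comparison, called, or among the 3 highest of their role, with others by range. From a list outside the members, at most 4 genes with the largest difference could be named, and not every list is named from. Gene lists and members were chosen with earlier results of these data known. Counts of non-overlapping arrays without the limit, and among genes 1 log2 unit above it, were chosen after seeing the data, as were the leave-one-out values of list genes and the limit of each pair alone for its list medians. Promoter motifs were searched on both strands.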

Additional observations from a re-analysis of the deposited data

Results flagged for a closer look

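Cxcl13 is listed because its pairs ran in opposite directions, each by more than the SD of the difference over all genes of that pair (0.29 in KO and 0.27 in the WT pair). It had -0.31 in the KO pair and 0.33 in the WT pair by title. The difference between the pairs was not tested, and with the WT arrays exchanged both pairs would run the same way.

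The shared Ccl21 probe sets lie outside the members and carried a difference of -1.15 (median of 5 distinct sets) between the KO arrays with and without prebiotics, more than any member showed.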

How the results depend on the processing

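The counts of members called for genotype and for prebiotics were 0 without the limit, with the limit at the 75th percentile, with probe sets averaged, with centred arrays, with cyclic loess and no trend in eBayes, and for genotype also with diet as a block and without each array in turn, and for prebiotics with the WT arrays exchanged. The counts of members at 2-fold were 0 under each of the first 5. Over all genes, limma called 0 for genotype, but 12 with diet as a block by title and 4 without the KO array without prebiotics; for prebiotics it called 164, but 85 without the limit, 25 without the trend and 0 with the WT arrays exchanged. Differences of members that were not called took the other sign as follows. For prebiotics with the WT arrays exchanged they were Ccl20 -0.081, Ccl27a 0.22, Ccl4 0.051, Ccl7 -0.11, Ccr7 0.055, Cx3cl1 -0.15, Cx3cr1 -0.28, Cxcl10 -0.15, Cxcl13 -0.32, Cxcl14 0.022, Cxcl16 -0.063, Cxcr2 0.025, Cxcr3 -0.037, Xcr1 -0.18. With centred arrays Cxcl13 had -0.0046 for prebiotics, and for genotype Ccr6 0.0017 and Cxcr5 0.0042. With cyclic loess Cxcl13 had -0.022 and Ccr6 0.0022. For genotype, leaving out 1 array (the lone array is assumed to vary like the other genotype) gave Ackr3 -0.28 to 0.10, Ccl25 -0.14 to 0.24, Ccl27a -0.18 to 0.088, Ccr6 -0.085 to 0.064, Ccr7 -0.23 to 0.0011, Cx3cl1 -0.21 to 0.46, Cxcl10 -0.0063 to 0.18, Cxcl14 -0.21 to 0.28, Cxcr3 -0.087 to 0.018, Cxcr5 -0.17 to 0.16, Xcr1 -0.088 to 0.27. The cause was not tested. For prebiotics, leaving out an array leaves no residual degrees of freedom and gives the single-pair differences. No pairing of replicates was possible because each group was 1 array and the labels carry no replicate numbers. The prebiotic fit, with genotype as a term, compared arrays within genotype. The diet block matched arrays only by diet, whose WT labels conflict. Pools of mice and values near background limit these data, and the 26 members below the limit could differ undetected.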
